A study of Mus musculus with 24 samples.

Results

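The 10 genes described here encode transcription factors of effector and tissue regulatory T (Treg) cells: *Gata3*, *Pparg*, *Batf*, *Irf4*, *Prdm1*, *Nfil3*, *Rora*, *Ahr*, *Maf* and *Tbx21*. They were taken by symbol from the 17464 genes of the expression table. The set was chosen with earlier results of these data known. All 10 were among the 16630 genes with enough signal to be tested. Bulk RNA-seq libraries came from the spleens of wild-type C57BL/6JRccHsd mice, 4 young (2 months) and 4 old (26 months), with no transgene or treatment in any group. Each mouse gave resting Treg cells sorted as CD62L+ CD44- (rTreg), activated Treg cells sorted as CD62L- CD44+ (aTreg) and KLRG1+ Treg cells (kTreg), so that 24 libraries fell into 6 groups of 4. Library depth over the listed genes ran from 15045747 to 29521942 reads, and 1 read was worth 0.694 to 1.32 normalized units. A normalized unit is a read after division by the size factor of its library.

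Treg cells carry FOXP3 and restrain other immune cells. When they are activated they take on an effector program in which BATF and IRF4 act together at composite DNA sites and induce *Prdm1*, whose product BLIMP-1 supports IL-10 production. Treg cells that live in tissues add further factors: GATA3, which sustains the IL-33 receptor ST2, PPARγ, the factor of fat-resident Treg cells, and RORα, AHR and c-MAF, known from skin and gut. T-bet, the product of *Tbx21*, marks Treg cells that restrain type 1 responses, and NFIL3 is a bZIP repressor tied to the circadian clock.

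The sort was visible in the transcripts. *Klrg1* lay between 16559 and 41561 units in kTreg libraries and at 357 or below elsewhere, and *Foxp3* was 5079 units or more in every library, with the lowest value in the old aTreg library of replicate 2. Some libraries stood apart. The young kTreg library of replicate 4 listed 4913 genes at 0, against 419 to 2756 in the others. All 3 libraries of young mouse 2 had the highest summed B cell markers of their group (7351 to 16479 units, against 881 to 2064 in the other young libraries), and its kTreg library also had 45033 units of macrophage and monocyte markers. The 4 old rTreg libraries held 3960 to 10310 units of basophil and mast cell markers, against 67.6 to 172 in young rTreg libraries. In bulk samples, fewer cells of a type and less RNA per cell cannot be told apart.

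On GRCm39, *Gata3* (ENSMUSG00000015619) lies on chromosome 2 from 9861889 to 9894845 on the minus strand and *Pparg* (ENSMUSG00000000440) on chromosome 6 from 115337675 to 115468268 on the plus strand. *Batf* (ENSMUSG00000034266) lies on chromosome 12 from 85733423 to 85755861 (plus) and *Ahr* (ENSMUSG00000019256) on the same chromosome from 35547973 to 35585057 (minus). Chromosome 13 carries *Irf4* (ENSMUSG00000021356) from 30933209 to 30950959 (plus) and *Nfil3* (ENSMUSG00000056749) from 53121245 to 53137010 (minus). *Prdm1* (ENSMUSG00000038151) lies on chromosome 10 from 44313171 to 44404497 (minus) and *Rora* (ENSMUSG00000032238) on chromosome 9 from 68561068 to 69295528 (plus). *Maf* (ENSMUSG00000055435) lies on chromosome 8 from 116409632 to 116434579 (minus) and *Tbx21* (ENSMUSG00000001444) on chromosome 11 from 96988897 to 97006158 (minus).

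The promoters of 8 of the 10 genes were matched in RefSeq (mouse build GRCm38.p6, while reads were counted on GRCm39). The stretch of 250 bases before each start was searched on both strands for T-box (AGGTGTGA) and NFIL3 (TTANGTAA) letters and for IRF, ROR, AP-1, AHR and GATA motifs. The AHR letters were TNGCGTG. The AP-1 letters were TGACTCA or TGAGTCA. The GATA factor motif reads AGATAA in 1 form, and in the other form it reads TGATAA. No motif holds another. Only 2 of the 10 windows of the genes held a match, 1 of the 3 *Pparg* windows for T-box and the *Batf* window for GATA on the reverse strand. The T-box letters are in 1.12% and the GATA letters in 16.6% of 32851 promoters of the same length. Both are shown because they are the matches, with *Gata3*, the gene with the smallest p between kTreg and aTreg cells, beside them. Capitals mark the match, 246 bases before the start in *Pparg* and 245 bases before it in *Batf*. The windows are chr6:115362099-115362348 on the plus strand, chr12:85686470-85686719 on the plus strand and chr2:9878601-9878850 on the minus strand, each written 5′ to 3′ along its gene.
Pparg: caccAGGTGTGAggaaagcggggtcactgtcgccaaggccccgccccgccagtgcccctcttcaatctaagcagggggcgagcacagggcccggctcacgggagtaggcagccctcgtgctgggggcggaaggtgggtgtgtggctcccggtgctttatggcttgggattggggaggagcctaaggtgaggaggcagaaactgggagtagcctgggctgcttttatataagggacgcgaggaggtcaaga
Batf: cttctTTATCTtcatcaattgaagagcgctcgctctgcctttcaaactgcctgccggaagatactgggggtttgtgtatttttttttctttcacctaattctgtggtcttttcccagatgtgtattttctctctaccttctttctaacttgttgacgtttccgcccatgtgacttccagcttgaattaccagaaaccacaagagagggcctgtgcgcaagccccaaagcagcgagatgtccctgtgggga
Gata3: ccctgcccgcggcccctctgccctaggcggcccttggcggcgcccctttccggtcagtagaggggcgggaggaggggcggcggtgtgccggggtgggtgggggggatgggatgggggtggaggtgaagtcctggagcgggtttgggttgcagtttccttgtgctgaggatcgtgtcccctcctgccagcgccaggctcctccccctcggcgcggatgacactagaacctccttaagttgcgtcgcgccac

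kTreg cells were first set against aTreg cells, the pair of subsets with an effector phenotype, with young and old mice weighted equally. Of the 10 genes, 7 were higher in kTreg cells and none lower, while 4.13% of all genes tested were called higher and 7.39% were called in either direction (limma, adjusted p under 0.05 and more than 1.5-fold). *Gata3*, *Pparg*, *Prdm1*, *Ahr*, *Rora*, *Batf* and *Maf* rose. The paper had already listed *Gata3* and *Ahr* among genes raised in kTreg cells in these data, so this count is not an independent one. The median log2 fold change of the 10 was 0.64, against −0.08 over all genes tested. Markers of other cells moved with this comparison. Those of macrophages and monocytes (10 of 10 genes above 0 in log2 fold change, 2 called) summed to 2531 to 4329 units in old kTreg against 386 to 669 in old aTreg libraries, and to 412 to 45033 against 154 to 3582 in young mice. Dendritic cell markers (5 of 6 genes in the table, 0 called) summed to 376 to 716 in old kTreg against 171 to 367 in old aTreg libraries, and to 215 to 931 against 54.6 to 540 in young mice. Markers of group 2 innate lymphoid cells (6 of 7 genes in the table, 4 called higher, none at 0 in all kTreg libraries of an age) summed to 3548 to 6375 in kTreg and 948 to 2982 in aTreg libraries. Of 7 NK cell markers, 3 were called higher and 2 lower. The 7 summed to 509 to 1087 in old kTreg against 1005 to 2594 in old aTreg libraries, and to 566 to 1874 against 1310 to 1806 in young mice. Of 6 basophil and mast cell genes tested, 1 was called higher and 1 lower. The part of these cells in the kTreg result was not tested.

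*Gata3* had the smallest p of the 10. It stood at 3146, 2647, 2809 and 2894 normalized units in the young aTreg libraries of replicates 1 to 4 and at 7356, 6975, 7294 and 7434 in young kTreg cells. In old mice it stood at 3823, 4919, 4040 and 3593 in aTreg and at 6365, 9415, 9245 and 7535 in kTreg cells. At neither age did the groups overlap, which was so for 7 of the 10 genes in young mice (6.67% of all genes in that direction) and for 3 in old mice (11.4% of all genes). The log2 fold change was 1.16 (standard error, SE, 0.10, limma adjusted p = 2.1e-07), and *Gata3* was higher in 8 of 8 mice. Its exons share 6.66% of its exon bases with those of the antisense gene *Gm13256*, which had a mean of 4.41 units.

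*Pparg* had the lowest level and the largest fold. Young aTreg cells held 43.4, 7.26, 12.1 and 7.80 units and young kTreg cells 473, 710, 186 and 515, so that the groups did not overlap. In old aTreg cells it stood at 581, 99.2, 151 and 122 units, and in old kTreg cells at 282, 641, 574 and 339. The old groups overlapped through the aTreg library of replicate 1, the only mouse of 8 in which *Pparg* was lower in kTreg than in aTreg cells. The log2 fold change over both ages was 3.07 (SE 0.46, limma adjusted p = 0.00011). The young mice alone gave 4.89 (limma adjusted p = 5.1e-05), the old mice alone 1.26 (limma adjusted p = 0.35), and the difference between the ages did not pass the threshold (−3.64, limma adjusted p = 0.17), although DESeq2 on the recovered reads called it (adjusted p = 0.0052).

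*Prdm1*, which encodes BLIMP-1, rose next most. It stood at 687, 1021, 670 and 957 units in young aTreg and at 3057, 3141, 3763 and 2944 in young kTreg cells. In old aTreg cells it stood at 1299, 582, 1457 and 1597, and in old kTreg cells at 2227, 3582, 2947 and 2555. The groups were apart at both ages. The log2 fold change was 1.62 (SE 0.26, limma adjusted p = 0.00022), with a higher value in 8 of 8 mice. The young mice alone gave 1.97 (limma adjusted p = 0.0013). The old mice alone gave 1.27 and did not pass (limma adjusted p = 0.066).

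*Ahr*, the receptor for dietary and microbial aryl hydrocarbons, stood at 531, 824, 657 and 930 units in young aTreg and at 1232, 1265, 979 and 1645 in young kTreg cells. In old mice it stood at 630, 449, 767 and 626 in aTreg and at 1417, 1558, 1555 and 1592 in kTreg cells. Neither pair of groups overlapped, and the old kTreg libraries differed by little (SD 77.7, n = 4). The log2 fold change was 1.07 (SE 0.22, limma adjusted p = 0.0023). The young mice alone gave 0.81 and did not pass (limma adjusted p = 0.12), and the old mice alone gave 1.33 (limma adjusted p = 0.024). An antisense gene, *Gm48236*, with a mean of 130 units, overlaps 2.05% of the *Ahr* exon bases. Reads within these shared bases cannot be told apart because the library kit keeps no strand.

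*Rora*, *Batf* and *Maf* lay close to the fold threshold. *Rora*, a nuclear receptor, had a log2 fold change of 0.66 (SE 0.14, limma adjusted p = 0.0039). In young mice it rose from 2146 ± 183 to 5010 ± 283 units, and in old mice it stood at 4508 ± 578 in aTreg and 4831 ± 831 in kTreg cells (SD, n = 4), a log2 fold change of 1.23 in young and 0.09 in old mice. *Batf*, a bZIP factor that pairs with IRF4, ranged from 2848 to 4935 in young aTreg, from 5170 to 9537 in young kTreg, from 4217 to 6378 in old aTreg and from 6194 to 7388 in old kTreg cells, with a log2 fold change of 0.63 (SE 0.15, limma adjusted p = 0.0074). The young kTreg library of replicate 4 was its highest, and without that library the log2 fold change was 0.53, under the 1.5-fold limit. *Maf*, an inducer of IL-10, had a log2 fold change of 0.61 (SE 0.17, limma adjusted p = 0.022), and without the old aTreg library of replicate 2 it was no longer called (0.56, limma adjusted p = 0.053). For *Maf* the young mice alone gave 0.89 (limma adjusted p = 0.025). The old mice alone gave 0.33 (limma adjusted p = 0.57), with overlapping groups.

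With age left out of the model *Gata3*, *Pparg*, *Prdm1* and *Batf* were still called, and *Ahr*, *Rora* and *Maf* were not. The other 3 genes were not called. *Nfil3* exceeded its aTreg value in 8 of 8 mice (0.54 on the log2 scale, limma adjusted p = 0.039), under the 1.5-fold limit. *Irf4*, which acts with BATF, had a log2 fold change of 0.38 (limma adjusted p = 0.33) and was higher in 1 of 4 young and 4 of 4 old mice. *Tbx21* was the only gene of the 10 with a negative value, −0.43 (limma adjusted p = 0.18; 95% interval −0.85 to −0.02), and was lower in kTreg than in aTreg cells in 8 of 8 mice.

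**Figure D1:**
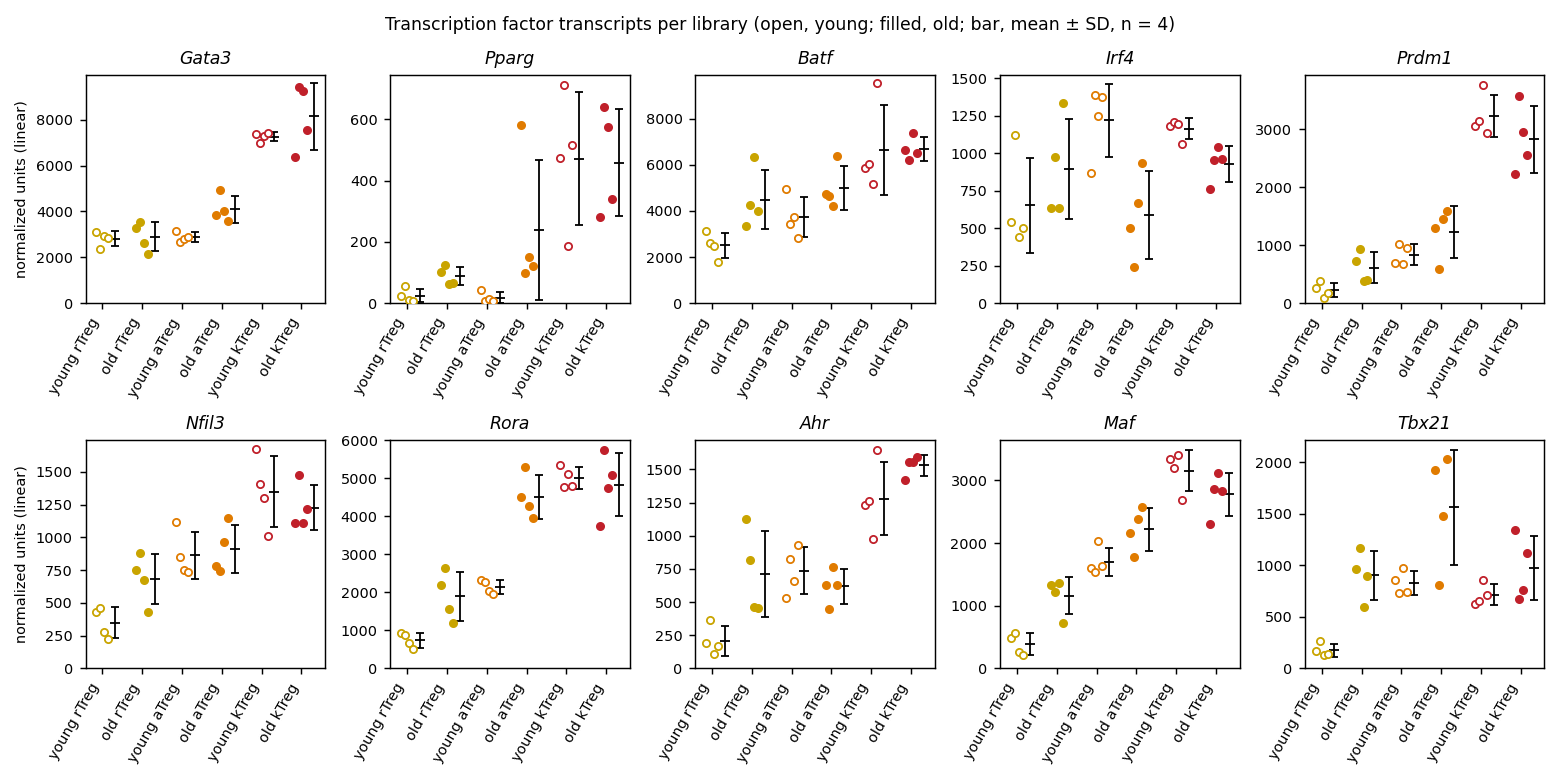
Normalized units of the 10 genes (vertical axes, linear, starting at 0) in the 6 groups, with 1 point a library, open for young and filled for old mice, and bars for the mean ± SD (n = 4). *Gata3* lies at 6365 units or more in all 8 kTreg libraries and at 4919 or below in the others, whereas *Tbx21* is highest in old aTreg cells.

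Seen by age, 6 of the 10 genes were called higher in young kTreg than in young aTreg cells (3.46% of all genes) and 2 in old mice (1.33% of all genes), *Gata3* (0.98, limma adjusted p = 0.00082) and *Ahr* (1.33, limma adjusted p = 0.024). With all 6 groups in the model none of the 10 passed the test of the difference between the ages in limma, where 0.156% of all genes did, and none did in edgeR. With only the 4 kTreg and aTreg groups in the limma fit *Rora* passed (limma adjusted p = 0.031). At an unadjusted p under 0.05, *Pparg* and *Rora* did, and DESeq2 called the same 2 genes.

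Against rTreg cells, 9 of the 10 genes were called higher in kTreg cells, while 9.37% of all genes were called higher and 15.5% in either direction. The median log2 fold change was 1.71. By age, 9 were called in young mice (1371 of 16630 over all genes) and 7 in old mice (960 of 16630). *Tbx21* (0.09, limma adjusted p = 0.89) and *Batf* (0.61, limma adjusted p = 0.067) were not called in old mice. The part of the other cells marked in the old rTreg libraries was not tested. *Pparg* (3.40, SE 0.46, limma adjusted p = 8.9e-06) and *Prdm1* (3.15, SE 0.26, limma adjusted p = 9.5e-09) differed most. *Prdm1* stood at 254, 390, 93.6 and 167 units in young rTreg cells, so that young kTreg cells lay 16.1-fold higher. *Maf* (2.22), *Rora* (2.09), *Ahr* (1.97), *Nfil3* (1.43), *Gata3* (2.71-fold), *Tbx21* (1.08) and *Batf* (1.00) followed, with adjusted p between 1.2e-09 and 0.00036 (limma). *Irf4* was not called (0.53, limma adjusted p = 0.11), but was without the young rTreg library of replicate 2, which stood at 1124 units against 439 to 540 in the other 3 (0.68, limma adjusted p = 0.030).

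aTreg cells exceeded rTreg cells for 6 genes, while 5.23% of all genes were called higher and 8.01% in either direction. These were *Maf* (1.61, limma adjusted p = 2.5e-06), *Prdm1* (1.53), *Tbx21* (1.51), *Rora* (1.43), *Ahr* (0.90) and *Nfil3* (0.89). *Gata3* (0.28, limma adjusted p = 0.095), *Pparg* (0.33), *Batf* (0.38) and *Irf4* (0.15) did not pass, and of these *Gata3*, *Pparg* and *Batf* were called between kTreg and aTreg cells. In young mice the same 6 genes were called higher (451 of 16630 over all genes). In old mice only *Maf* (0.97, limma adjusted p = 0.013) and *Rora* (1.31, limma adjusted p = 0.00023) were (802 of 16630). There *Ahr* stood at −0.13, and *Prdm1* (1.02), *Tbx21* (0.74) and *Nfil3* (0.44) did not pass (limma adjusted p = 0.079, 0.10 and 0.28). The part of the other cells marked in the old rTreg libraries was not tested. The comparisons share the rTreg, aTreg and kTreg libraries with each other, so their values are given side by side only.

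**Figure D2:**
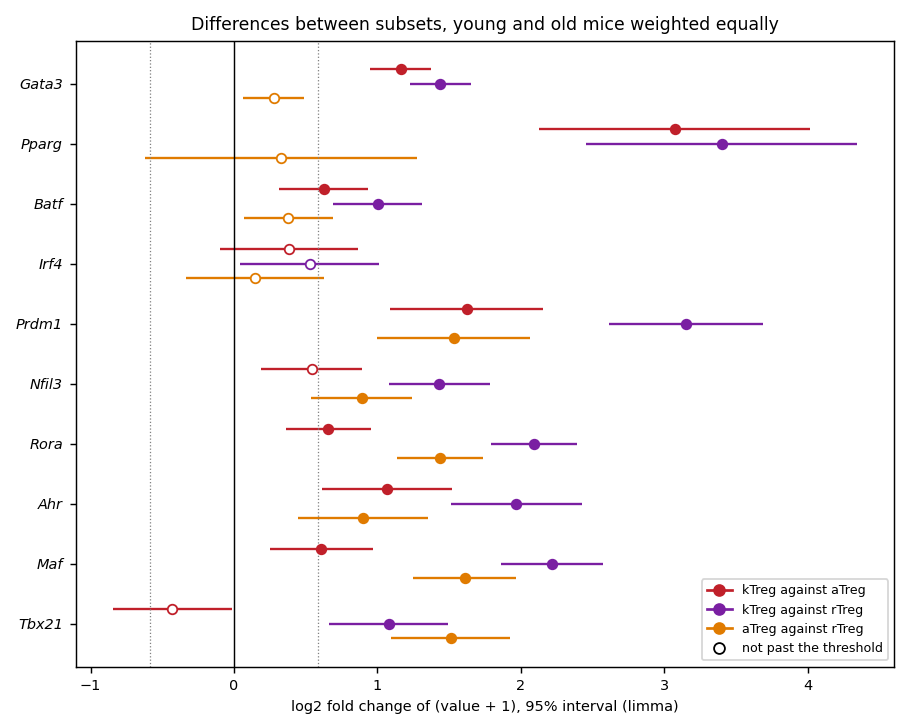
Log2 fold changes of (value + 1) with 95% intervals (horizontal axis, limma) of the 10 genes for kTreg against aTreg, kTreg against rTreg and aTreg against rTreg cells. Filled points passed the adjusted p and the 1.5-fold limit (dotted lines), open points did not, and *Irf4* is open in all 3 comparisons.

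Levels per kilobase of exon put the genes in order within kTreg cells. *Batf* was highest, at 4663 ± 1375 units per kilobase in young and 4691 ± 353 in old kTreg cells (SD, n = 4). *Gata3* followed at 1597 ± 44.3 and 1789 ± 320, and *Prdm1* at 574 ± 65.3 and 503 ± 104. *Rora* (346 ± 19.6) and *Maf* (340 ± 35.1) did not differ beyond their spread in young kTreg cells, nor did *Tbx21* (287 ± 40.9), *Nfil3* (272 ± 54.9) and *Irf4* (237 ± 14.1). *Ahr* stood at 207 ± 44.5 there. The order of these means was another in old kTreg cells. It ran *Tbx21* (391 ± 125), *Rora* (334 ± 57.4), *Maf* (299 ± 37.0), *Nfil3* (248 ± 34.8), *Ahr* (248 ± 12.6) and *Irf4* (190 ± 24.3). *Pparg* was lowest, at 67.6 ± 31.0 and 65.8 ± 25.1. In young rTreg cells *Batf* also led (1760 ± 389) and *Pparg* was last (3.54 ± 3.23).

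Old mice were then compared with young mice within each subset. In rTreg cells 8 of the 10 genes were called higher in old mice, while 4.12% of all genes were called higher and 5.83% in either direction. In aTreg cells 2 were called higher (1.85% of all genes higher, 2.71% in either direction), and in kTreg cells none (1.26% of all genes in either direction). For kTreg cells the count was also 0 by edgeR, by DESeq2 and at an unadjusted p under 0.05.

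*Tbx21* differed most by its p in rTreg cells. Young rTreg cells held 168, 265, 131 and 138 units, and old rTreg cells 961, 1168, 594 and 892, a log2 fold change of 2.38 (SE 0.28, limma adjusted p = 2.0e-05). *Maf* stood at 491, 572, 261 and 218 in young and at 1338, 1214, 1358 and 727 in old rTreg cells (1.66, SE 0.24, limma adjusted p = 0.00017). The lowest old library exceeded the highest young library for both genes.

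*Rora* stood at 935, 872, 662 and 508 in young and at 2182, 2652, 1571 and 1184 in old rTreg cells (1.32, SE 0.20, limma adjusted p = 0.00029). *Ahr* stood at 191, 367, 108 and 166 in young and at 1128, 816, 460 and 454 in old rTreg cells (1.81, SE 0.31, limma adjusted p = 0.00076). Neither gene overlapped between the ages. *Prdm1* (1.51, limma adjusted p = 0.014), *Nfil3* (0.98, limma adjusted p = 0.015), *Batf* (0.83, limma adjusted p = 0.019) and *Pparg* (2.16, limma adjusted p = 0.046) were called as well. *Pparg* rested on few reads there, 24.7, 56.5, 10.5 and 7.03 units in young and 101, 125, 63.1 and 65.5 in old rTreg cells. *Gata3* had equal means within their spread, 2811 ± 313 in young and 2888 ± 636 in old rTreg cells (0.02, 95% interval −0.28 to 0.32, limma), and *Irf4* was not called (0.49, limma adjusted p = 0.42). Old and young rTreg libraries did not overlap for 6 of the 10 genes, against 6.61% of all genes in that direction.

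Sums of markers of other cells moved with age in rTreg libraries for several lists. Only the basophil and mast cell list had every tested gene called higher (limma). The basophil and mast cell list, of which 6 of 7 genes were in the table, summed to 3960 to 10310 units in old and 67.6 to 172 in young rTreg libraries. The macrophage and monocyte list (10 of 10 genes) summed to 10312 to 27236 in old and 643 to 9964 in young ones, most of it *Lyz2* (9381 to 25153 in old), while *C1qa* did not exceed 48.6. The NK cell list (7 of 7) summed to 1694 to 6557 in old and 528 to 1540 in young rTreg libraries, the plasma cell list (7 of 8) to 62363 to 107473 against 26143 to 46127, and the neutrophil list (7 of 7) to 177 to 10032 against 40.1 to 2819. Called higher were 6 of 6 basophil and mast cell genes tested, 2 of 7 NK cell and 2 of 7 plasma cell genes. So were 1 of 7 neutrophil and 0 of 10 macrophage and monocyte genes. The log2 fold change was above 0 for 7 of 10 macrophage and monocyte, 5 of 7 NK cell and 5 of 7 neutrophil genes. No gene of these 5 lists that was in the table was at 0 in all 4 old rTreg libraries. Group 2 innate lymphoid cell markers (6 of 7) summed to 880 to 1507 in old and 223 to 430 in young rTreg libraries, with 2 called higher and *Il5* at 0 in all 4 old ones, and dendritic cell markers (5 of 6) to 211 to 377 against 53.2 to 199, with *Siglech* at 0 in all 4 old ones. The B cell list (8 of 8) summed to 739 to 1635 in old and 881 to 16479 in young ones. Within the old rTreg libraries, replicate 3 had the highest basophil and macrophage sums and the highest *Batf* (6336) and *Maf* (1358). *Ahr* was highest in replicate 1, *Gata3*, *Pparg*, *Prdm1*, *Rora*, *Nfil3* and *Tbx21* in replicate 2 and *Irf4* in replicate 4. The part of these cells in the age result was not tested.

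**Figure D3:**
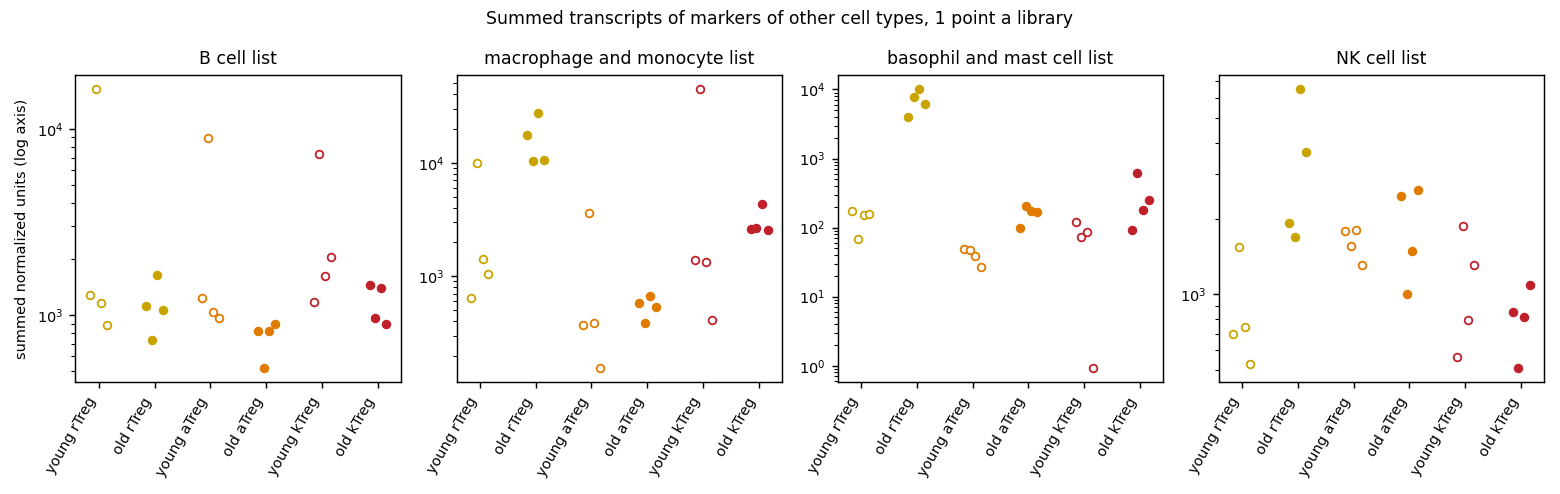
Summed normalized units (vertical axes, log scale) of B cell, macrophage and monocyte, basophil and mast cell and NK cell markers, with 1 point a library, open for young and filled for old mice. The 4 old rTreg libraries hold 3960 to 10310 units of basophil and mast cell markers, and the highest B cell point of each young group is young mouse 2.

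The count for old against young rTreg cells moved with the model and the library left out. It was 3 with the rTreg libraries alone in the fit (*Rora*, *Maf* and *Tbx21*), 4 without the young rTreg library of replicate 3 or young mouse 3, and 5 without the young rTreg library of replicate 4 or old mouse 1. Without the 3 libraries of young mouse 2 it stayed at 8.

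In aTreg cells *Pparg* (12.7-fold, log2 fold change 3.67, SE 0.64, limma adjusted p = 0.0018) and *Rora* (1.07, SE 0.20, limma adjusted p = 0.0035) were higher in old mice. The *Pparg* fold rested on few reads in young aTreg cells, 43.4, 7.26, 12.1 and 7.80 units. Old aTreg cells held 581, 99.2, 151 and 122. *Rora* stood at 2337, 2261, 2034 and 1951 in young and at 4516, 5303, 4265 and 3948 in old aTreg cells, with no overlap. *Gata3* was higher in each old than in each young aTreg library, as were *Pparg* and *Rora* (7.63% of all genes), and did not pass (0.50, limma adjusted p = 0.064). *Irf4* was lower on average in old aTreg cells, 588 ± 292 against 1220 ± 244 (SD, n = 4), and did not pass either (−1.19, limma adjusted p = 0.052). With the mouse as a block it was called (limma adjusted p = 0.0499), and over all alternatives in 15 of 46. *Tbx21* had a log2 fold change of 0.84 (limma adjusted p = 0.13), and was called in 5 alternatives: with DESeq2 (adjusted p = 0.026), with the unadjusted p, without the old aTreg library of replicate 2 (limma adjusted p = 0.029), without old mouse 2 (limma adjusted p = 0.021), and without that library and the young kTreg library of replicate 4 (limma adjusted p = 0.0165), the last chosen after seeing the data. That old aTreg library had the lowest *Irf4* (243), *Prdm1* (582), *Ahr* (449), *Maf* (1776), *Tbx21* (810), *Nfil3* (745) and *Pparg* (99.2) of its group, and the highest *Gata3* (4919) and *Rora* (5303).

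In kTreg cells the log2 fold changes with age lay between −0.33 (*Irf4*) and 0.40 (*Tbx21*). The 95% interval was −0.15 to 0.45 for *Gata3*, −0.49 to 0.36 for *Rora* and −1.31 to 1.37 for *Pparg*, so that the interval of *Pparg* still holds a 2-fold change in either direction. *Irf4* did not overlap between the ages (1061 to 1211 in young, 762 to 1043 in old), which was so for 3.88% of all genes in that direction.

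**Figure D4:**
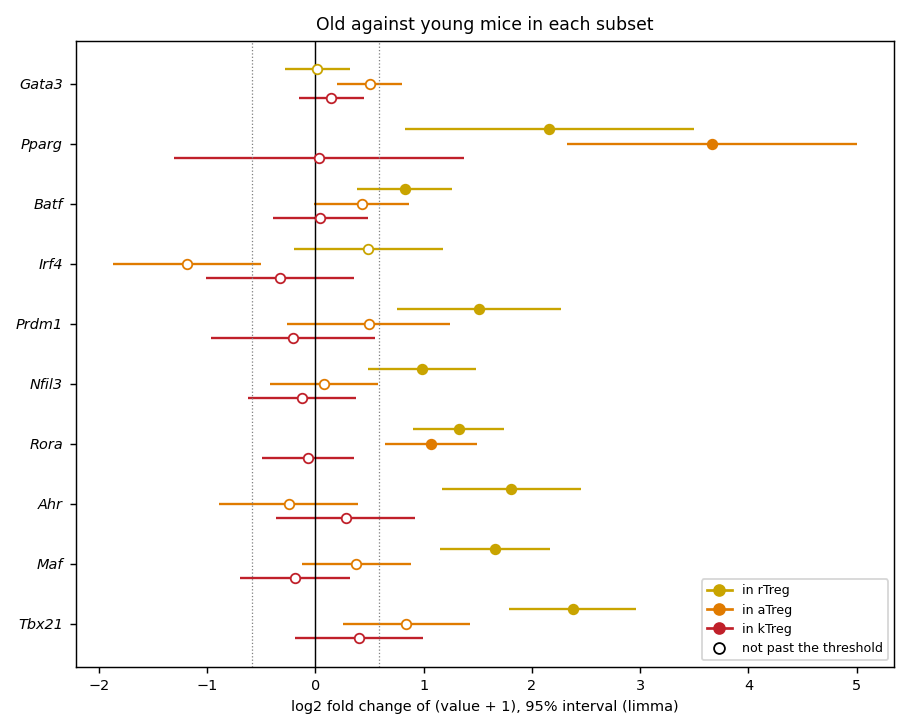
Log2 fold changes of (value + 1) between old and young mice with 95% intervals (horizontal axis, limma) in rTreg, aTreg and kTreg cells. Filled points passed the threshold: 8 genes in rTreg, *Pparg* and *Rora* in aTreg and none in kTreg cells.

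The differences between subsets depended on age for some genes. The gap between kTreg and rTreg cells was smaller in old mice for *Tbx21* (interaction −1.97, SE 0.40, limma adjusted p = 0.0078), *Maf* (−1.85, SE 0.34, limma adjusted p = 0.0045) and *Rora* (−1.39, SE 0.29, limma adjusted p = 0.0088). For *Tbx21* it was 2.07 in young and 0.09 in old mice, for *Maf* 3.14 and 1.29, and for *Rora* 2.79 and 1.40. Genes with a lower gap in old mice were 2.03% of all genes. The gap between aTreg and rTreg cells was smaller for *Ahr* (−2.05, SE 0.44, limma adjusted p = 0.021), 1.93 in young and −0.13 in old mice, where 1.05% of all genes were called in this direction. Blocking on the mouse (the replicate block) raised this count from 1 to 3. These interactions use the old rTreg libraries, whose markers of other cells are given above, and the part of those cells in them was not tested. Without young mouse 3 the first comparison called 1 gene, and without the young rTreg library of replicate 2 it called 6. *Ahr* in the second was called in 39 of 47 alternatives, and no gene was called there without young mouse 3 or 4, old mouse 1 or 2, the young rTreg library of replicate 3, the young aTreg library of replicate 2 or 4 or the old aTreg library of replicate 2.

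Related genes were read from lists. Among 10 factors that oppose effector differentiation or a gene described here, 5 were lower and none higher in kTreg than in aTreg cells (3.26% of all genes were lower). The median log2 fold change of these 10 factors was −0.85. *Tcf7*, which keeps T cells in a memory-like state, fell by 1.85 on the log2 scale, *Id3* by 1.27, *Bach2*, a repressor of *Prdm1*, by 1.39, *Foxp1* by 0.89 and *Satb1* by 0.81 (adjusted p between 2.0e-07 and 0.0022, limma). Against rTreg cells, 8 of these 10 factors were lower (6.09% of all genes). The partner list had 4 of 20 genes higher than in aTreg cells (4.13% of all genes), *Ikzf2* (1.00), *Foxp3* (0.88), *Rxra* (1.25), the partner of PPARγ, and *Ikzf4* (0.63), and none lower. Among 21 family members tested, 3 were higher, among them *Irf5* (1.02) and *Gata2* (1.96), and 2 lower, among them *Gata1* (−2.43). *Gata2*, a factor of basophils and mast cells, was higher in old than in young rTreg cells by 7.02 on the log2 scale (limma adjusted p = 6.5e-06).

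Other lists held genes tied to single factors, to be read against 4.13% of all genes higher and 3.26% lower between kTreg and aTreg cells. Of 9 genes tied to GATA3, 4 were higher in kTreg than in aTreg cells, *Il1rl1* (4.57), *Ccr3* (5.11), *Ccr8* (0.85) and *Areg* (1.74), and *Il4* was lower (−1.88). Of 11 lipid genes that PPAR factors are known to control, *Dgat2* (2.19, limma adjusted p = 5.5e-07) and *Cpt1a* (0.66, limma adjusted p = 0.011) were higher. Of 5 AHR targets tested, *Gpr15*, a gut homing receptor, was higher (1.12, limma adjusted p = 0.0023) and *Cyp1a1*, the classic AHR target, was lower (−3.02, limma adjusted p = 0.00098). Among 9 T-bet genes 1 was higher, *Ccl5* (1.04), and none lower. Of 17 effector Treg genes 12 were higher and 1 lower, among them *Gzmb* (2.98), *Ctla4* (1.02) and *Ebi3* (1.16), and *Klrg1*, the sort marker, is in this list. Of 14 clock genes none was called between kTreg and aTreg cells by limma, edgeR or DESeq2, and 3 had an unadjusted p under 0.05, none of them past 1.5-fold. Between aTreg and rTreg cells 6 of the 14 were higher (5.23% of all genes), and between kTreg and rTreg cells 8 were (9.37% of all genes), among them *Bmal1* (1.01) and *Nr1d2* (1.07). In old against young rTreg cells, 6 of 9 T-bet genes were higher (4.12% of all genes), led by *Ccl4* (6.23) and *Cxcr3* (2.37), beside the NK cell and other markers given above.

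The 10 genes varied together over the 24 libraries, which share subset and age. Pearson's r of log2(value + 1) was above 0 for all 45 pairs, with a median of 0.73 and a range of 0.09 to 0.96. *Nfil3* and *Maf* were closest (0.96). *Irf4* stood lowest, with a median of 0.25 to the other 9. With group means removed, 38 of 45 pairs stayed above 0 and the median was 0.35. The lowest were then *Gata3* with *Irf4* (−0.50) and *Gata3* with *Tbx21* (−0.43). The median over pairs of other genes was not computed.

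**Figure D5:**
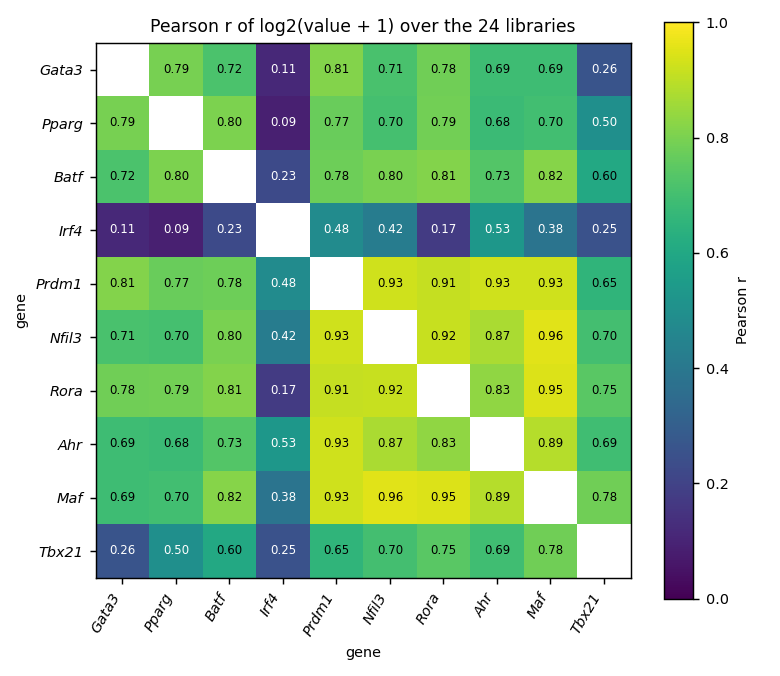
Pearson's r of log2(value + 1) between each pair of the 10 genes over the 24 libraries (color scale 0 to 1). The *Irf4* row and column are the lowest, with no value above 0.53.

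Over all genes tested, *Gata3* was most like *1700061F12Rik* (r = 0.94), *Cd200r1* (0.94) and *Tent5a* (0.92), and *Pparg* like *Tspan17* (0.90), *Serinc3* (0.89) and *1700061F12Rik* (0.86). *Prdm1* was most like *Tmbim1* (0.98), *Fgl2* (0.97) and *Tmem154* (0.97). *Ahr* was most like *Itgae* (0.97), *Tjp3* (0.96) and *Adam8* (0.95), *Maf* like *Pvrig* (0.98), *Matk* (0.96) and *Tigit* (0.96), and *Nfil3* like *Maf* (0.96), *Pdcd1* (0.95) and *Tigit* (0.95). *Tbx21* was most like *Efhd2* (0.98), *Cxcr3* (0.96) and *Serpina3g* (0.95), and *Rora* like *Zdhhc2* and *Ttc39c* (0.95 each). *Batf* was most like *Crlf2* (0.93), *Alad* (0.92) and *Selenom* (0.91), and *Irf4* like *Jarid2*, *Lclat1* and *St6galnac4* (0.84 each).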

How the data were processed

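Bulk RNA-seq was made with SMART-Seq v4, which does not mark strand and adds no molecular identifiers. According to their methods and processing notes, the authors aligned reads with HISAT2 2.2.1 to GRCm39, handled them with SAMtools 1.13, counted them with HTSeq 1.99.2 and used DESeq2 1.44.0. The annotation release, strand setting and DESeq2 formula are not given in the sources used here. The deposited values are a normalized signal, the reads of a gene divided by 1 size factor per library. All columns were mapped to samples by their labels, and ages come from the study's text. Whole reads were recovered for 100% of values within 0.001 reads, and counting error of PCR copies is not the error between mice. Symbols, positions and exon lengths came from GENCODE M39 (17353 of 17464 identifiers).

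The main test was limma 3.58.1 (R 4.3.3) with its trend option, fitted to log2(value + 1) in 6 groups, for genes with at least 10 units in at least 4 libraries, Benjamini-Hochberg adjusted p under 0.05 over all 16630 genes and more than 1.5-fold. The pseudocount of 1 understates changes of low genes. edgeR 4.0.16 and DESeq2 1.42.0 on recovered reads, 2 other pseudocounts and filters, 3 other scalings, other models and each library or mouse left out were alternatives. Values and plots used Python 3.11.15, numpy 2.4.6, pandas 2.3.3 and matplotlib 3.10.9. Checked on simulated data, fold sizes and directions were recovered for genes of moderate or high level, most changes of low-level genes were missed, and DESeq2 made more false calls than limma. A first requirement on the total share recovered was not met, because of the low-level genes, and was replaced by requirements on bias, direction and recovery at higher levels.

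Per the design text each mouse gave all 3 subsets, so replicate numbers pair libraries. Deviations from group means correlated within a mouse with a median of 0.15 (rTreg and aTreg), 0.091 (rTreg and kTreg) and 0.12 (aTreg and kTreg), against −0.033, −0.034 and −0.051 between mice. All 10 genes are named. From each other list at most 6 genes past the threshold were named per comparison, in order of p, and for each of the 10 genes the 3 with the highest r. A few genes that these rules would name are not reported here. The genes and lists were chosen with earlier results of these data known.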

Additional observations from a re-analysis of the deposited data

Results flagged for a closer look

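Among 60 groups of 4 libraries tested for a library far from the others (Dixon's test, of which chance flags about 1 in 20), 3 stood out. *Pparg* was 43.4 normalized units in the young aTreg library of replicate 1, against 7.26 to 12.1 in the other 3. It was 581 in the old aTreg library of replicate 1, against 99.2 to 151. *Irf4* was 1124 in the young rTreg library of replicate 2, against 439 to 540. That library also had the highest summed B cell markers of the 24 (16479 units), and their part in this value was not tested.

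Differences between subsets that changed with age by limma's interaction test were those between kTreg and rTreg cells of *Tbx21* (−1.97), *Rora* (−1.39) and *Maf* (−1.85), and that between aTreg and rTreg cells of *Ahr* (−2.05). The old rTreg libraries in these tests carried markers of other cell types, whose part was not tested.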

How the results depend on the processing

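No value of the 10 genes that was called changed direction under any alternative. Counting each gene in each comparison and alternative, 6746 values kept their side of the threshold, 111 were no longer past it and 133 came past it. Of the counts, kTreg against aTreg was 4 in place of 7 with age left out of the model. Old against young rTreg was 3 in place of 8 with only the groups compared. Old against young aTreg was 4 in place of 2 with the unadjusted p and with DESeq2. The interaction of age with kTreg against aTreg was 1 in place of 0 with only the groups compared and 2 with the unadjusted p and with DESeq2. That with kTreg against rTreg was 8 in place of 3 with the unadjusted p, 6 with DESeq2, and 5 without the young kTreg library of replicate 4 and the old aTreg library of replicate 2 together, a setting chosen after seeing the data. That with aTreg against rTreg was 2 in place of 1 with a pseudocount of 5 and with a filter at 50, 5 with the unadjusted p and 4 with DESeq2. With the mouse as a replicate block, and as a fixed effect, it was 3, and no other count moved by over 1.5 times; *Irf4* in old against young aTreg cells (adjusted p = 0.0499, limma) and *Ahr* in the kTreg and rTreg interaction (adjusted p = 0.046, limma) were called with the block. The cause of these moves was not tested.

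Leaving out 1 library or 1 mouse gave 5 to 8 genes for kTreg against aTreg, 9 to 10 for kTreg against rTreg, 5 to 6 for aTreg against rTreg, 4 to 8 for old against young rTreg, 2 to 3 for old against young aTreg and 0 for old against young kTreg cells. The interactions gave 0 for kTreg against aTreg, 1 to 6 for kTreg against rTreg and 0 to 4 for aTreg against rTreg. The kTreg and rTreg interaction was 5 without the old rTreg library of replicate 3 or 4 or young mouse 2, and the aTreg and rTreg interaction was 4 without the young rTreg library of replicate 2 or the young kTreg library of replicate 4. The lowest values came without young mouse 3 for old against young rTreg (4) and the kTreg and rTreg interaction (1). *Pparg* in old against young rTreg cells was called in 23 of 46 alternatives.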
